A study of Mus musculus with 6 samples.

Results

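Oxidative phosphorylation subunits are the nuclear-encoded proteins of the mitochondrial respiratory chain and of ATP synthase. They were taken as every probe set with exactly 1 gene symbol in the platform annotation, where that symbol began with Nduf, Uqcr or Atp5, was Cox followed by a digit from 4 to 8, or was Sdha, Sdhb, Sdhc, Sdhd, Cyc1 or Cycs. This gave 184 of 45037 probe sets, and 92 of the 18194 genes with such a probe set, and the rule used no measured value. The assembly factors of complex I carry Nduf symbols and so fall under the rule, although they are not subunits of the finished enzyme. RNA came from motor neurons of the mouse brainstem and was measured on 6 mouse Affymetrix arrays after 2 rounds of T7 amplification. There were 3 samples from SOD1 mice and 3 from wild-type (WT) mice. SOD1 stands for superoxide dismutase 1, the copper-zinc form of the enzyme. The sources used here do not give the change these mice carried, their strain, their sex, their age or the way the neurons were collected. The labels do not say whether the 3 samples of a genotype are separate animals; a p-value here therefore reflects the spread of these samples alone, and that spread may be partly technical.

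The respiratory chain passes electrons from NADH (complex I) and succinate (complex II) through complex III and cytochrome c to oxygen at complex IV. Complexes I, III and IV pump protons across the inner mitochondrial membrane, and ATP synthase (complex V) lets them flow back to make ATP. Neurons depend heavily on this pathway, and mutant SOD1 has been studied for its effects on mitochondria in motor neurons. A few subunits are encoded in mitochondrial DNA, and all the others are made from nuclear genes and imported.

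Values are log2 signal after quantile normalisation, with 16 added before taking the logarithm, and differences are SOD1 minus WT with the standard error (SE) of the limma fit, n = 3 arrays per group. Array medians as deposited lay within 0.22 of each other on the log2 scale and averaged 8.24 in SOD1 and 8.35 in WT. The brightest probe set for Sod1 gave 16.79, 16.69 and 16.84 in SOD1 samples, against 16.33, 16.51 and 16.68 in WT samples, a difference of 0.27 ± 0.10 (limma, adjusted p = 0.257). Xist, which is transcribed from the inactive X chromosome of females, gave 12.83, 12.91 and 5.71 in SOD1 samples, against 7.07, 6.60 and 5.76 in WT samples. SOD1 samples 1 and 2 thus stood apart from the other 4. The labels give no sex, and if Xist marks it, sex is partly confounded with genotype in every comparison here. Motor neuron markers were present, with 21 of 25 probe sets kept by the filter on low signal and array means of 12.58 to 12.79 in SOD1 samples and 12.81 to 12.89 in WT samples. The array background, set from bacterial control probe sets, was 7.21 to 7.61.

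No oxidative phosphorylation probe set passed the test between SOD1 and WT motor neurons. The filter kept 167 of the 184 probe sets, for 87 of the 92 genes, and 0 of these 167 had an adjusted p under 0.05 (limma, Benjamini-Hochberg over all 27022 probe sets tested), against 0.185% of all probe sets tested. The same count was 0 with the values as deposited and 0 with arrays centred on their medians, where 0.163% and 0.152% of all probe sets passed. The smallest adjusted p among the subunits was 0.106, for cytochrome c. At an unadjusted p under 0.05, 29 of the 167 (17.4%) were higher in SOD1 and 9 (5.39%) were lower, against 7.09% and 7.58% of all probe sets tested. The SOD1 and WT samples did not overlap for 36 subunit probe sets that were higher in SOD1 (21.6%, against 10.5% of all probe sets tested) and for 13 that were lower (7.78%, against 9.81%).

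How the subunits stood as a group depended on the scaling. Their median difference was 0.07 after quantile normalisation, 0.20 as deposited and 0.31 after median centring, where the median over all probe sets tested was -0.01, -0.06 and 0.04. Positive differences numbered 103 of 167 (61.7%) after quantile normalisation, 128 (76.6%) as deposited and 145 (86.8%) after median centring, against 49.5%, 45.3% and 53.1% of all probe sets tested. As deposited, 59 probe sets were higher in every SOD1 sample than in any WT sample (background 9.62%) and 5 were lower in every SOD1 sample (background 11.7%). Taking the brightest probe set of each gene, 51 genes were positive and 36 negative after quantile normalisation, and 66 were positive and 21 negative as deposited.

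**Figure D1:**
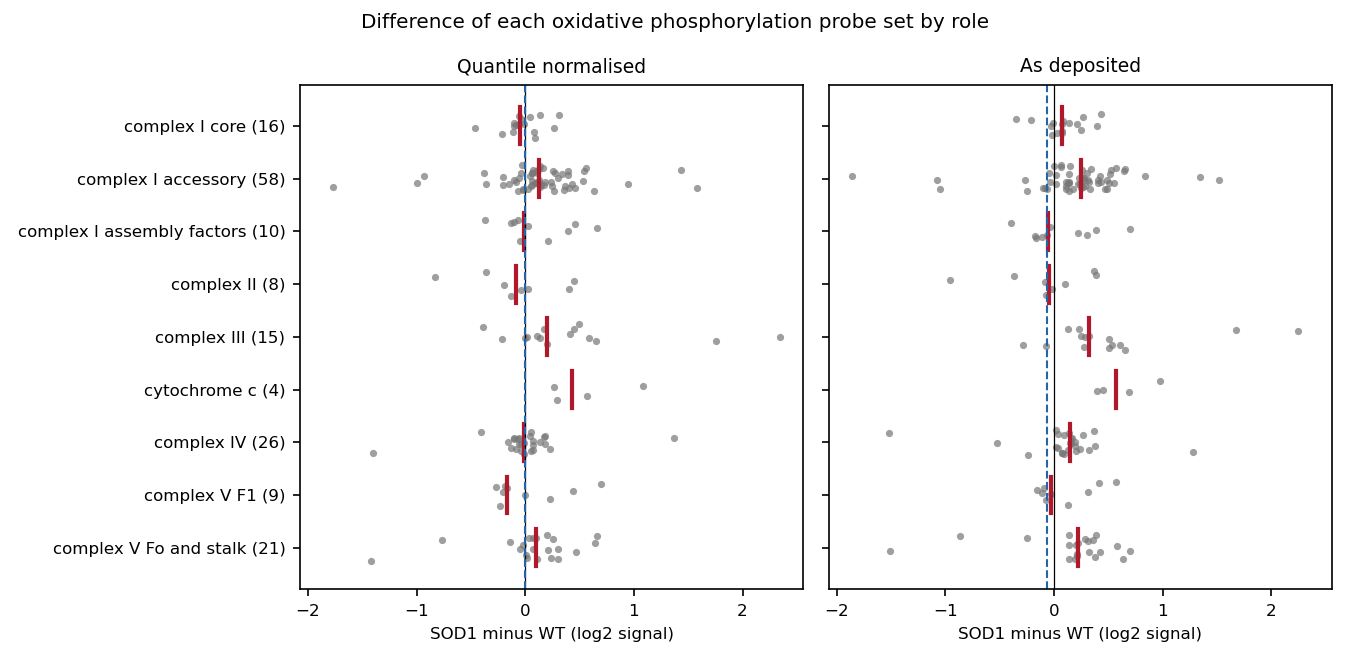
Difference between SOD1 and WT (log2 signal, horizontal axis) of each of the 167 probe sets kept, by role (rows, with the number of probe sets), after quantile normalisation on the left and as deposited on the right. Grey points are probe sets, red bars the median of a role and the blue dashed line the median of all probe sets tested; cytochrome c and complex III have the highest medians, 0.43 and 0.20 after quantile normalisation, and 7 of the 9 roles have a higher median as deposited by over 0.1.

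The core subunits of complex I, which carry its flavin and iron-sulphur clusters, had a median difference of -0.05 over 16 probe sets, and 0.08 as deposited. Ndufs7, the subunit that holds the last iron-sulphur cluster before ubiquinone, had 15.37, 14.91 and 15.16 in SOD1 samples, against 15.56, 15.65 and 15.63 in WT samples on probe set 1451312_at. All 3 SOD1 samples lay below all 3 WT samples, with a difference of -0.47 ± 0.13 (limma, adjusted p = 0.162) that was -0.35 as deposited. Its second probe set, 1424313_a_at, had 16.51, 16.34 and 16.44 in SOD1 samples, against 16.64, 16.75 and 16.53 in WT samples. That difference of -0.21 shrank to -0.02 as deposited, where the groups overlapped. Ndufs1, the largest core subunit, ran the other way, with 15.66, 15.79 and 15.49 in SOD1 samples, against 15.22, 15.31 and 15.48 in WT samples (0.31 ± 0.13, limma, adjusted p = 0.293). Ndufs8, another iron-sulphur subunit, had 6 probe sets kept, 2 of them positive, with differences of -0.11 to 0.14. Its brightest, 1434579_x_at, gave -0.11 ± 0.08 and turned to 0.08 as deposited.

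The promoter window of Ndufs7, the core subunit with the lowest difference, is shown because a binding motif of YY1, a transcription factor known for activating genes of mitochondrial function, lies just past the gene start, in capitals (chr10:80249199-80249498, plus strand, RefSeq GRCm38.p6, 250 bases before to 50 after the start, 5′ to 3′).
Ndufs7: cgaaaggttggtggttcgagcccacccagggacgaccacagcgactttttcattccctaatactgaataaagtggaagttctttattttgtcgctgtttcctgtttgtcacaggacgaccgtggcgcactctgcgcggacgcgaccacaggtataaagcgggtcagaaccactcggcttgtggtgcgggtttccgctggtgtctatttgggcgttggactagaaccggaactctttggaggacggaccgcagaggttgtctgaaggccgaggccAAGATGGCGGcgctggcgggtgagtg

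The accessory subunits of complex I, which surround the core and are needed to build it, made up the most numerous role, with 58 probe sets kept. Their median was 0.12 (0.25 as deposited), 11 were higher and 3 lower at an unadjusted p under 0.05 (7.09% and 7.58% of all probe sets tested), and none passed after adjustment (lowest adjusted p = 0.156, limma). Ndufb2, a membrane-arm subunit, had 15.43, 15.64 and 15.75 in SOD1 samples, against 15.29, 15.12 and 15.02 in WT samples on 1416834_x_at (0.46 ± 0.13, limma, adjusted p = 0.156). Its brightest probe set, 1448483_a_at, had 16.28, 16.40 and 16.43 in SOD1 samples, against 16.12, 16.05 and 16.04 in WT samples. Both of these were higher in every SOD1 sample than in any WT sample. The remaining, dim probe set of Ndufb2, 1442658_at, gave -0.93 ± 0.72, at 8.87, 5.89 and 8.15 in SOD1 samples, against 8.46, 8.51 and 8.74 in WT samples.

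Ndufa6, an accessory subunit of the LYR family, had 15.95, 16.13 and 16.35 in SOD1 samples, against 15.84, 15.70 and 15.70 in WT samples (0.40 ± 0.12, limma, adjusted p = 0.174). Ndufb5, of the membrane arm, had 15.69, 15.92 and 16.11 in SOD1 samples, against 15.60, 15.39 and 15.52 in WT samples on 1448589_at (0.41 ± 0.13, limma, adjusted p = 0.195). Ndufs4, a subunit whose loss in mice gives a model of Leigh syndrome, had 13.99, 14.32 and 14.84 in SOD1 samples, against 13.85, 13.75 and 13.64 in WT samples on 1448959_at (0.64 ± 0.21, limma, adjusted p = 0.212). On each of these 3 probe sets the groups did not overlap, SOD1 sample 3 was the highest array and SOD1 sample 1 was the SOD1 sample nearest to WT. The other probe set of Ndufb5 (0.27 ± 0.14) and the other 2 of Ndufs4 kept (0.53 ± 0.24 and 0.18 ± 0.28) had overlapping groups. Ndufc2, also of the membrane arm, had 15.16, 15.40 and 16.18 in SOD1 samples, against 15.12, 14.97 and 15.03 in WT samples on 1416366_at (0.54 ± 0.22, limma, adjusted p = 0.287), and the difference without SOD1 sample 3 was 0.23. Its brighter probe sets gave 0.26 ± 0.11 on 1460506_s_at, with the groups apart, and 0.07 ± 0.08 on 1455036_s_at, with overlap. As deposited 1455036_s_at gave 0.26, with the groups apart. Ndufa5 (0.43 ± 0.14 on 1417286_at; limma, adjusted p = 0.211) and Ndufa2 (0.34 ± 0.12; limma, adjusted p = 0.236) were higher with overlapping groups after quantile normalisation. As deposited these probe sets gave 0.55 and 0.49, and the groups did not overlap.

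Ndufa10, a subunit related to nucleoside kinases, was lower on both of its probe sets. It had 16.03, 15.38 and 15.84 in SOD1 samples, against 16.04, 16.22 and 16.07 in WT samples on the brighter one (-0.36 ± 0.15, limma, adjusted p = 0.307). The dimmer one had 11.56, 10.36 and 10.94 in SOD1 samples, against 11.96, 12.03 and 11.85 in WT samples (-0.99 ± 0.32, limma, adjusted p = 0.204). On the brighter probe set SOD1 sample 1 lay just under the lowest WT sample, and as deposited the groups overlapped with a difference of -0.25. SOD1 sample 2 was the lowest array on both, and without it the brighter probe set gave -0.18. Ndufa8, an intermembrane-space subunit, had 15.35, 14.85 and 15.28 in SOD1 samples, against 15.70, 15.65 and 15.27 in WT samples, so the groups overlapped (-0.38 ± 0.17, limma, adjusted p = 0.321). The 4 probe sets of Ndufa1 and Ndufb11, which lie on the X chromosome, differed by 0.02 to 0.16.

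The complex I assembly factors had a median of -0.01 over 10 probe sets of 8 genes, and -0.05 as deposited. Ndufaf2, a chaperone of a late step of assembly, had 14.55, 14.72 and 14.63 in SOD1 samples, against 14.06, 13.88 and 13.99 in WT samples. The groups were separate by more than their own spread, and the difference was 0.66 ± 0.15, or 1.58-fold (limma, adjusted p = 0.107), and 0.70 as deposited. Ndufaf1, which acts earlier in assembly, had 13.08, 12.58 and 13.21 in SOD1 samples, against 13.09, 13.48 and 13.43 in WT samples, with an overlap between the groups (-0.37 ± 0.22, limma, adjusted p = 0.476).

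Complex II, succinate dehydrogenase, which is also an enzyme of the citric acid cycle, had 3 of its 8 probe sets positive and 5 negative. The median was -0.08, and -0.05 as deposited. The SOD1 samples lay below the WT samples for 2 of the 8 and above them for 0, against 9.81% and 10.5% of all probe sets tested. These 2 were 1426688_at of Sdha and the probe set of Sdhb. As deposited 0 of the 8 separated the groups. Sdhb, its iron-sulphur subunit, had 16.14, 15.75 and 16.19 in SOD1 samples, against 16.19, 16.28 and 16.20 in WT samples (-0.20 ± 0.12, limma, adjusted p = 0.488). Sdhd, a membrane anchor, had 13.72, 14.08 and 13.66 in SOD1 samples, against 13.22, 13.12 and 13.92 in WT samples (0.40 ± 0.23, limma, adjusted p = 0.459). WT sample 3 lay between the SOD1 values for Sdhd. The brightest probe set of Sdha, the flavoprotein, differed by -0.04 ± 0.11.

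Complex III, which hands electrons from ubiquinol to cytochrome c, had a median of 0.20 over 15 probe sets (0.32 as deposited), with 12 positive and 3 negative. The SOD1 samples lay above the WT samples for 8 of the 15 and below them for 1, against 10.5% and 9.81% of all probe sets tested. Uqcrh, the hinge protein at the docking site of cytochrome c, had 15.98, 16.17 and 16.29 in SOD1 samples, against 15.78, 15.54 and 15.63 in WT samples on 1453229_s_at (0.50 ± 0.12, limma, adjusted p = 0.117). On its other probe set, 1452133_at, it had 15.59, 15.71 and 15.60 in SOD1 samples, against 15.15, 15.08 and 15.43 in WT samples (0.41 ± 0.13, limma, adjusted p = 0.178). Both probe sets of Uqcrh separated the groups, and the differences were 0.61 and 0.53 as deposited.

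Uqcr10, a small accessory subunit of complex III, was higher on all 3 of its probe sets and separated the groups on each after quantile normalisation. The brightest, 1424364_a_at, had 14.12, 14.33 and 14.07 in SOD1 samples, against 13.72, 13.45 and 13.40 in WT samples (0.65 ± 0.17, limma, adjusted p = 0.143). On 1434341_x_at it had 10.73, 11.13 and 12.83 in SOD1 samples, against 8.88, 8.48 and 10.28 in WT samples (2.35 ± 0.58, limma, adjusted p = 0.128). On 1434340_at it had 8.70, 8.45 and 12.13 in SOD1 samples, against 7.58 to 8.44 in WT samples (1.75 ± 0.82, limma, adjusted p = 0.355). On this last probe set SOD1 sample 3 alone was far from the other arrays, the difference without that sample was 0.57, and the groups overlapped as deposited.

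Uqcrb, which helps bind ubiquinone, differed between its probe sets after quantile normalisation. It had 14.75, 14.84 and 15.10 in SOD1 samples, against 14.70, 14.35 and 14.29 in WT samples on 1416337_at (0.45 ± 0.16, limma, adjusted p = 0.244). The brighter 1455997_a_at differed by 0.01 ± 0.07, with overlapping groups. As deposited the differences were 0.51 and 0.25, and both probe sets of Uqcrb separated the groups. Uqcrc1, a core protein of the complex, was the 1 that was lower with separate groups, at 15.17, 14.86 and 15.05 in SOD1 samples, against 15.23, 15.51 and 15.51 in WT samples (-0.39 ± 0.14, limma, adjusted p = 0.232). As deposited the difference was -0.28 and the groups overlapped.

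The promoter window of Uqcrh is shown as that of a complex III gene with the groups apart on every probe set, and a match to the core motif of GABP, an ETS-family factor known to bind promoters of respiratory chain genes, is in capitals (chr4:116075021-116075320, minus strand, RefSeq GRCm38.p6, 250 bases before to 50 after the start, 5′ to 3′).
Uqcrh: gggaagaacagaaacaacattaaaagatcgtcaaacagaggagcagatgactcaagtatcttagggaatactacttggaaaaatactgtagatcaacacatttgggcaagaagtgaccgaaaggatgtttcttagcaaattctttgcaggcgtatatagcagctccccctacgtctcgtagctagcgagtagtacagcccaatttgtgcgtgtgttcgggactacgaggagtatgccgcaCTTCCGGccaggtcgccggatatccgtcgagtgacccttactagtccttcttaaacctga

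Cytochrome c (Cycs), the soluble carrier between complexes III and IV, was higher on all 4 of its probe sets, each with an unadjusted p under 0.05, and had the highest median of any role, 0.43 (0.57 as deposited). On 1422483_a_at it had 15.78, 15.96 and 16.14 in SOD1 samples, against 15.32, 15.33 and 15.53 in WT samples. The SOD1 values were all above the WT values, and the difference of 0.57 ± 0.12, or 1.48-fold, had the lowest adjusted p of any subunit (limma, adjusted p = 0.106). As deposited, it had 15.83, 16.04 and 16.21 in SOD1 samples, against 15.27, 15.27 and 15.47 in WT samples, a difference of 0.69 (limma, adjusted p = 0.0721).

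Probe set 1456071_a_at of Cycs had 16.50, 16.56 and 16.70 in SOD1 samples, against 16.36, 16.18 and 16.34 in WT samples (0.29 ± 0.10, limma, adjusted p = 0.212). Probe set 1422484_at had 16.34, 16.37 and 16.34 in SOD1 samples, against 16.13, 15.95 and 16.17 in WT samples (0.27 ± 0.10, limma, adjusted p = 0.245). The dim 1445484_at had 10.18, 9.80 and 10.84 in SOD1 samples, against 9.99, 9.05 and 8.53 in WT samples, where SOD1 sample 2 lay below WT sample 1 (1.08 ± 0.45, limma, adjusted p = 0.302). The 4 probe sets read the same gene and are not independent of each other.

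The promoter window of Cycs is shown because it carries GCATGCGC, part of the motif of NRF1, in capitals. NRF1 is a transcription factor known for binding cytochrome c promoters. The window is chr6:50566520-50566819 (minus strand, RefSeq GRCm38.p6, 250 bases before to 50 after the start, 5′ to 3′).
Cycs: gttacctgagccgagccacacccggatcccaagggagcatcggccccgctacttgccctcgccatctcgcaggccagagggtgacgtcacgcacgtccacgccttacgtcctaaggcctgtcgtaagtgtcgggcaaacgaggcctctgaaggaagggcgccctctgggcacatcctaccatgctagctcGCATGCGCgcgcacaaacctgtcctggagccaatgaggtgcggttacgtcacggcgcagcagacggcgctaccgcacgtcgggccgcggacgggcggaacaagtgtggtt

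**Figure D2:**
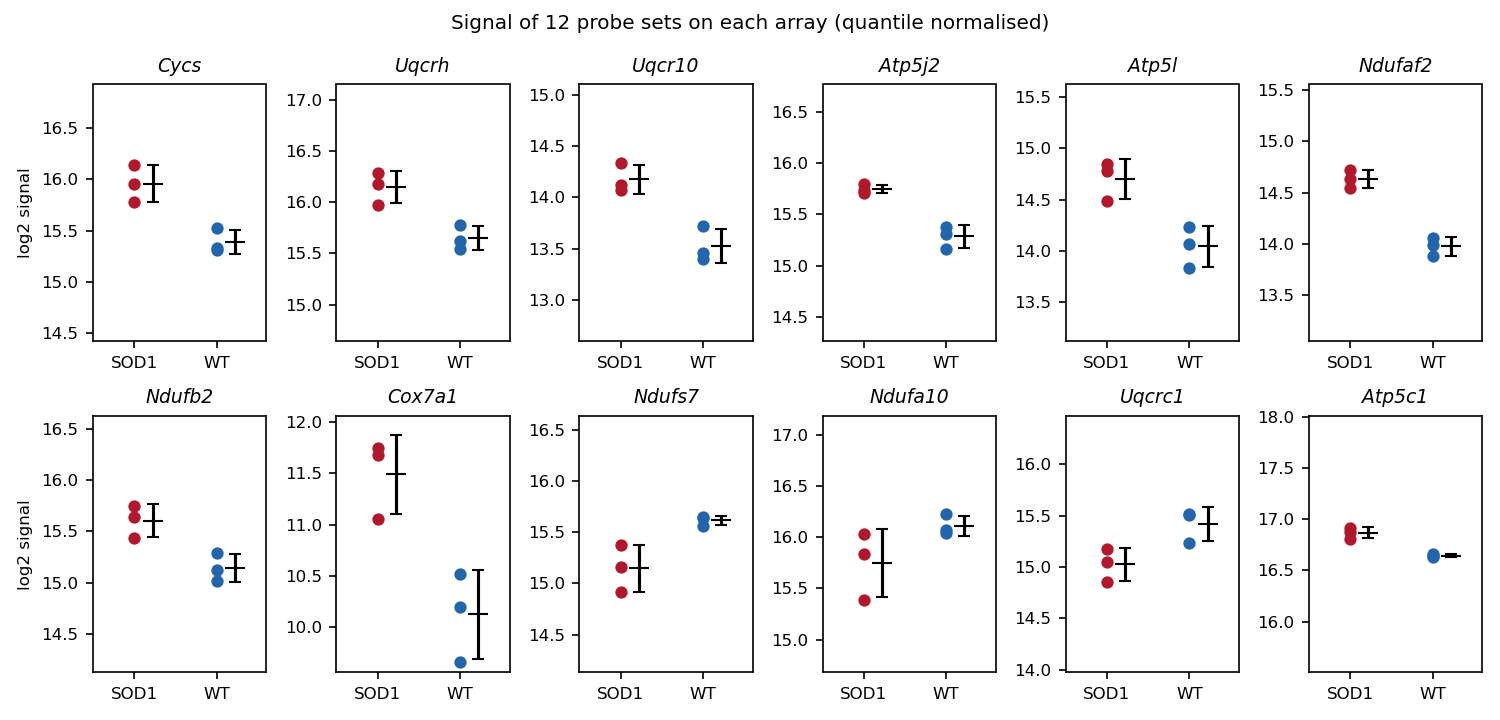
Quantile-normalised log2 signal (vertical axis, a span of 2.5 in every panel) of 12 probe sets on each of the 3 SOD1 arrays (red) and 3 WT arrays (blue), with the mean and SD of each group in black. The first 8 panels and Atp5c1 are higher in every SOD1 sample; Ndufs7, Ndufa10 and Uqcrc1 are lower in every SOD1 sample, and none of the 12 passed the test after adjustment.

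Complex IV, cytochrome c oxidase, centred on no change, with a median of -0.01 over 26 probe sets, 12 positive and 14 negative. As deposited the median was 0.15 and 23 of the 26 were positive. Several of its subunits exist in tissue forms, and the common forms were bright on every array. Cox4i1 differed by -0.10 ± 0.09, the 2 probe sets of Cox6a1 by -0.01 and -0.04, those of Cox6b1 by 0.07 and 0.05, and the 2 of Cox8a kept by 0.08 and -0.07. All of these had overlapping groups after quantile normalisation, and their differences as deposited were 0.03 to 0.24. As deposited, 1417417_a_at of Cox6a1 and 1436757_a_at of Cox6b1 were higher in every SOD1 sample than in any WT sample, and the rest overlapped.

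Cox7a1, the heart and skeletal muscle form of subunit 7a, had the largest difference among the complex IV forms tested. It had 11.75, 11.68 and 11.05 in SOD1 samples, against 10.52, 10.20 and 9.66 in WT samples. Every SOD1 sample was above every WT sample, and the difference was 1.37 ± 0.34, or 2.58-fold (limma, adjusted p = 0.126). The common form Cox7a2 differed by 0.19 ± 0.09 and 0.04 ± 0.08 on its 2 probe sets. As deposited, both were higher in every SOD1 sample than in any WT sample. The related Cox7a2l, which takes part in supercomplexes, differed by -0.04 to 0.17 on 3. Of the 25 probe sets of skeletal and heart muscle markers, 3 were kept, with a median of -0.46 and none called, and 8 were not above background on any array. The share of other cell types in this value was not tested.

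The other tissue forms of complex IV were dim, and most could not be read. Cox4i2, a lung form, was above background on 2 of the 6 arrays, the testis form Cox6b2 on 3 and the muscle form Cox8b on 0. Cox7b2, Cox4i2, Cox6b2, Cox8b and, in complex I, Ndufa4l2 had no probe set above the filter and were not tested. The muscle form Cox6a2 and the testis form Cox8c, each with 1 of 2 probe sets kept, differed by 0.23 ± 0.64 and -0.13 ± 0.45, with overlapping groups. Cox8b had a nominal difference of 1.68 between values that all lay below background, so no change is read from it. Ndufa4, named for complex I and later assigned to complex IV, had 16.34, 16.50 and 16.78 in SOD1 samples, against 16.28, 16.16 and 16.45 in WT samples, with overlap between the groups (0.24 ± 0.12, limma, adjusted p = 0.389). As deposited the difference for Ndufa4 was 0.40 and the groups did not overlap.

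Cox5b, a regulatory subunit of complex IV, shows how far a dim probe set can depart from the others of its gene. Its 4 bright probe sets differed by -0.08 to 0.06. Probe set 1436149_at had 9.01, 9.01 and 9.11 in SOD1 samples, against 9.93, 11.46 and 9.94 in WT samples, so WT sample 2 stood apart (-1.40 ± 0.44, limma, adjusted p = 0.190). Without WT sample 2 the difference was -0.90.

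ATP synthase had a median of 0.07 over 30 probe sets (0.21 as deposited). The F1 head, where ATP is made, had a median of -0.17 over 9 probe sets (-0.02 as deposited), with 3 positive and 6 negative; after median centring the median was 0.08. Atp5c1, the central shaft of the head, was the exception with separate groups, at 16.81, 16.88 and 16.92 in SOD1 samples, against 16.64, 16.63 and 16.66 in WT samples (0.23 ± 0.08, limma, adjusted p = 0.233). Atp5d, the delta subunit at the foot of that shaft, had 16.98, 16.73 and 16.62 in SOD1 samples, against 17.01, 17.09 and 16.92 in WT samples (-0.23 ± 0.10, limma, adjusted p = 0.330). The groups overlapped for Atp5d, and the difference was -0.02 as deposited. The difference between head and membrane part was not tested.

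The membrane part and stalk, through which protons pass and which hold the head in place, had a median of 0.09 over 21 probe sets (0.22 as deposited). Atp5j2, subunit f of the membrane part, had 15.79, 15.71 and 15.74 in SOD1 samples, against 15.16, 15.38 and 15.31 in WT samples (0.46 ± 0.11, limma, adjusted p = 0.121). Its brighter probe set, 1435395_s_at, had 16.71, 16.84 and 16.71 in SOD1 samples, against 16.53, 16.48 and 16.52 in WT samples (0.24 ± 0.08, limma, adjusted p = 0.231). Both separated the groups. The remaining, dim probe set, 1443495_at, ran the other way, at 8.41, 7.07 and 6.41 in SOD1 samples, against 8.44, 8.81 and 8.89 in WT samples (-1.41 ± 0.61, limma, adjusted p = 0.320). After median centring Atp5j2 had the lowest adjusted p of any subunit (limma, adjusted p = 0.0680).

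Atp5l, subunit g, which lies where ATP synthase dimers meet, had 14.48, 14.78 and 14.85 in SOD1 samples, against 14.23, 13.83 and 14.07 in WT samples (0.66 ± 0.17, limma, adjusted p = 0.136). Atp5mpl, a small proteolipid bound to the enzyme, had 15.59, 15.76 and 15.55 in SOD1 samples, against 15.42, 15.35 and 15.36 in WT samples (0.25 ± 0.11, limma, adjusted p = 0.330). Both genes separated the groups. Of the 3 genes for subunit c, the ring that turns as protons pass, the brightest probe set of Atp5g2 had 13.88, 13.91 and 13.89 in SOD1 samples, against 13.20, 12.95 and 13.59 in WT samples (0.64 ± 0.20, limma, adjusted p = 0.178). A dim probe set of Atp5g2, 1456128_at, gave -0.77 ± 0.56 with overlapping groups. The brightest probe sets of Atp5g1 and Atp5g3 differed by 0.07 ± 0.13 and -0.04 ± 0.09, with overlapping groups. As deposited the groups were narrowly apart for Atp5g3, with a lowest SOD1 value of 16.7336 and a highest WT value of 16.7255. Whether Atp5g2 differs from the other subunit c genes was not tested.

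Several probe sets were available for most genes, and they did not always give the same sign. Of the 49 genes with at least 2 probe sets kept, 26 had all differences positive, 9 all negative and 14 both. After quantile normalisation every kept probe set separated the groups, higher in SOD1, for Cox6c, Ndufb8, Uqcr10 and Uqcrh (8.16% of the 49, against 2.18% of all 5953 genes with at least 2 probe sets tested), and lower in SOD1 for Ndufa10 and Ndufs7 (4.08%, against 1.6%). As deposited this held for 7 of the 49 genes higher in SOD1 (background 2.27%), among them Cox6c, Ndufb8 and Uqcrh but not Uqcr10, and for 0 lower in SOD1 (background 2%). The probe sets of 8 genes differed by over 1 in their log2 difference, and in all 8 the dimmest had a mean signal of 12 or below. For example, the 5 probe sets of Ndufab1, the acyl carrier protein, ranged from -1.77 ± 0.85 on one with a mean of 7.58, where SOD1 sample 2 was at 4.64, to 0.40 ± 0.30 on one with a mean of 11.5, and 3 of them were positive. Its brightest, with a mean of 15.3, gave -0.15 ± 0.13. Ndufb8 gave 1.44 ± 0.57 at a mean of 7.67 and 0.10 ± 0.08 at a mean of 16.4.

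**Figure D3:**
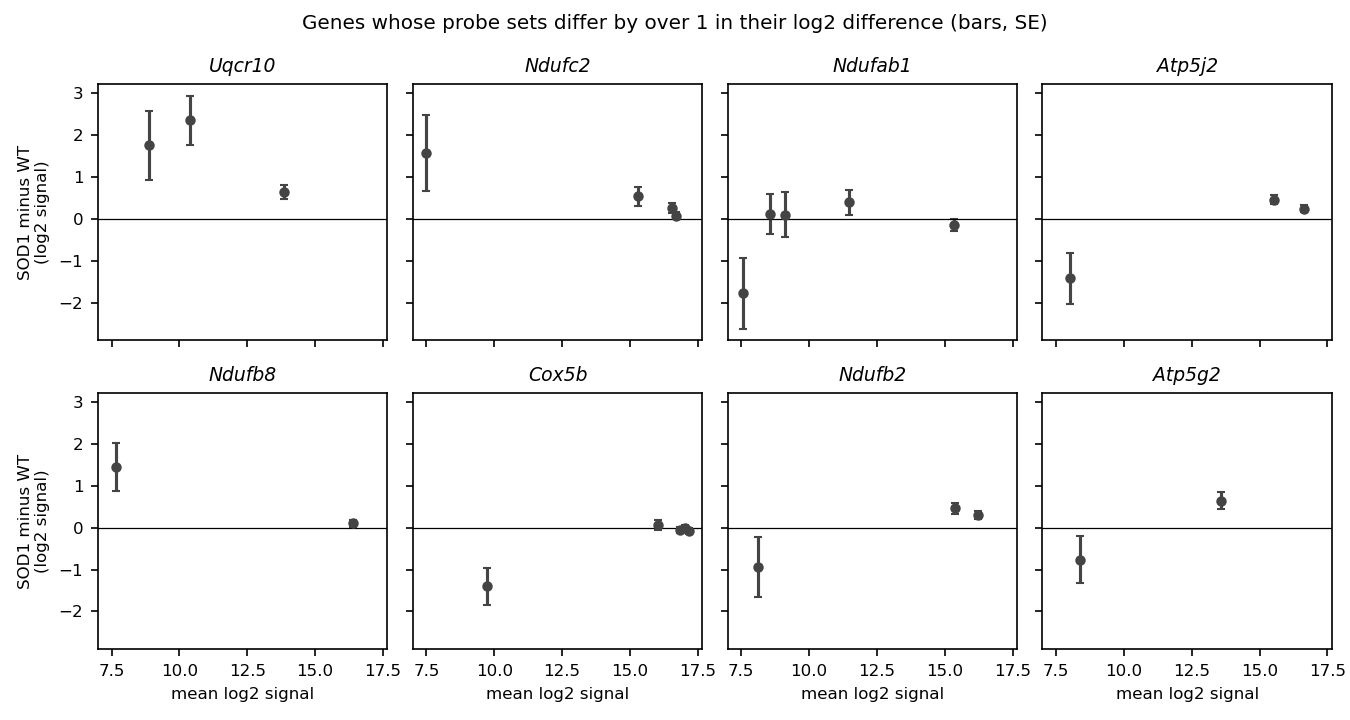
Difference between SOD1 and WT (log2 signal, vertical axis, bars SE) against the mean signal over the 6 arrays (log2, horizontal axis) for each kept probe set of the 8 genes whose probe sets differ by over 1. The bright probe sets lie within 0.65 of 0, and the values beyond 1 all come from probe sets with a mean of 12 or below.

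The subunits are among the brightest probe sets, and the scaling acted on bright probe sets in general. Above a mean of 16 on the log2 scale there were 59 subunit probe sets among 468 in all, and the median difference was 0.06 for the subunits and 0.01 for all 468 after quantile normalisation. As deposited those medians were 0.23 and 0.17, and 93.2% of the subunit probe sets and 81.6% of all probe sets in that band were positive. Between 15 and 16 there were 44 among 817, with medians of 0.08 and 0.05 after quantile normalisation and of 0.20 and 0.16 as deposited. Below a mean of 12 the 35 subunit probe sets had a median of 0.18, and 0.11 as deposited.

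**Figure D4:**
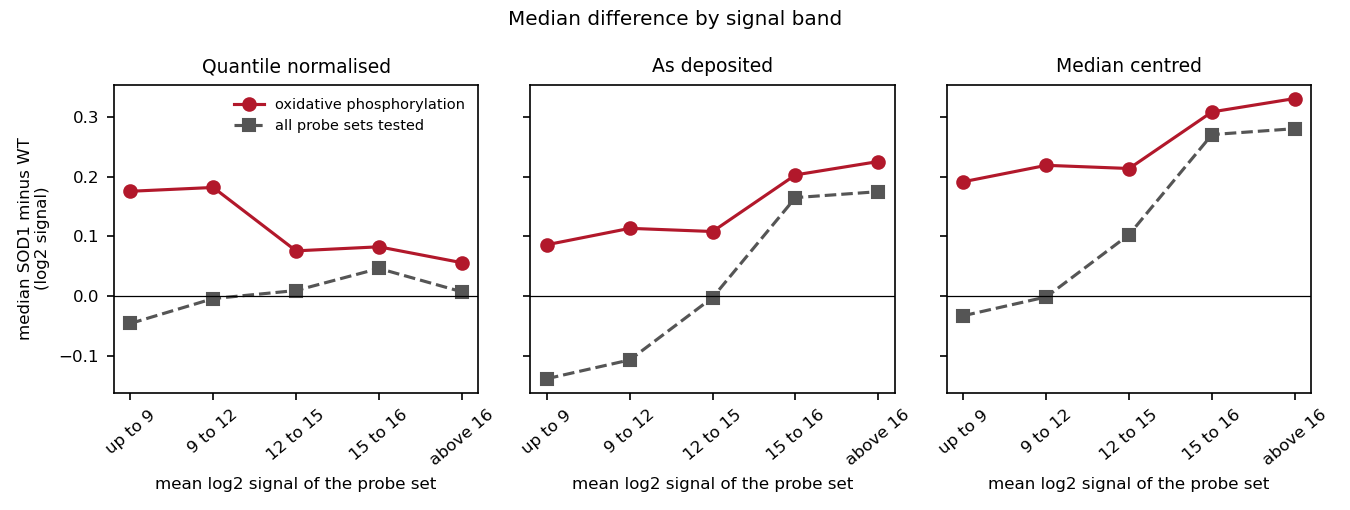
Median difference between SOD1 and WT (log2 signal, vertical axis) in 5 bands of mean log2 signal (horizontal axis) under 3 scalings, for the subunit probe sets (red circles) and all probe sets tested (grey squares). The grey line climbs with signal as deposited, to 0.17 above 16, and lies at 0.01 there after quantile normalisation; the red line is above it in each band under each scaling.

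By array, the mean over the 167 probe sets, as a deviation from the mean of the 6 arrays, was 0.04, -0.01 and 0.13 in SOD1 samples, against -0.05, -0.04 and -0.07 in WT samples after quantile normalisation. As deposited it was 0.06, 0.05 and 0.17 in SOD1 samples, against -0.09, -0.08 and -0.10 in WT samples. After quantile normalisation SOD1 sample 3 was the highest array for 49 of the probe sets and WT sample 3 the lowest for 48; as deposited SOD1 sample 2 was the highest for 56 and WT sample 3 the lowest for 51. Complex III had 0.02, 0.15 and 0.50 in SOD1 samples, against -0.18, -0.31 and -0.18 in WT samples. SOD1 sample 3 was well above the other SOD1 samples in this mean, which includes the dim 1434340_at and 1434341_x_at of Uqcr10. On these probe sets SOD1 sample 3 was at 12.13 and 12.83, against 8.70 and 10.73 in SOD1 sample 1 and 8.45 and 11.13 in SOD1 sample 2. The complex III mean without them was not taken. Cytochrome c had 0.18, 0.16 and 0.49 in SOD1 samples, against -0.07, -0.39 and -0.37 in WT samples. The groups overlapped for complexes I, II, IV and V after quantile normalisation: complex I had 0.08, -0.04 and 0.11 in SOD1 samples, against -0.04, -0.0001 and -0.11 in WT samples.

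**Figure D5:**
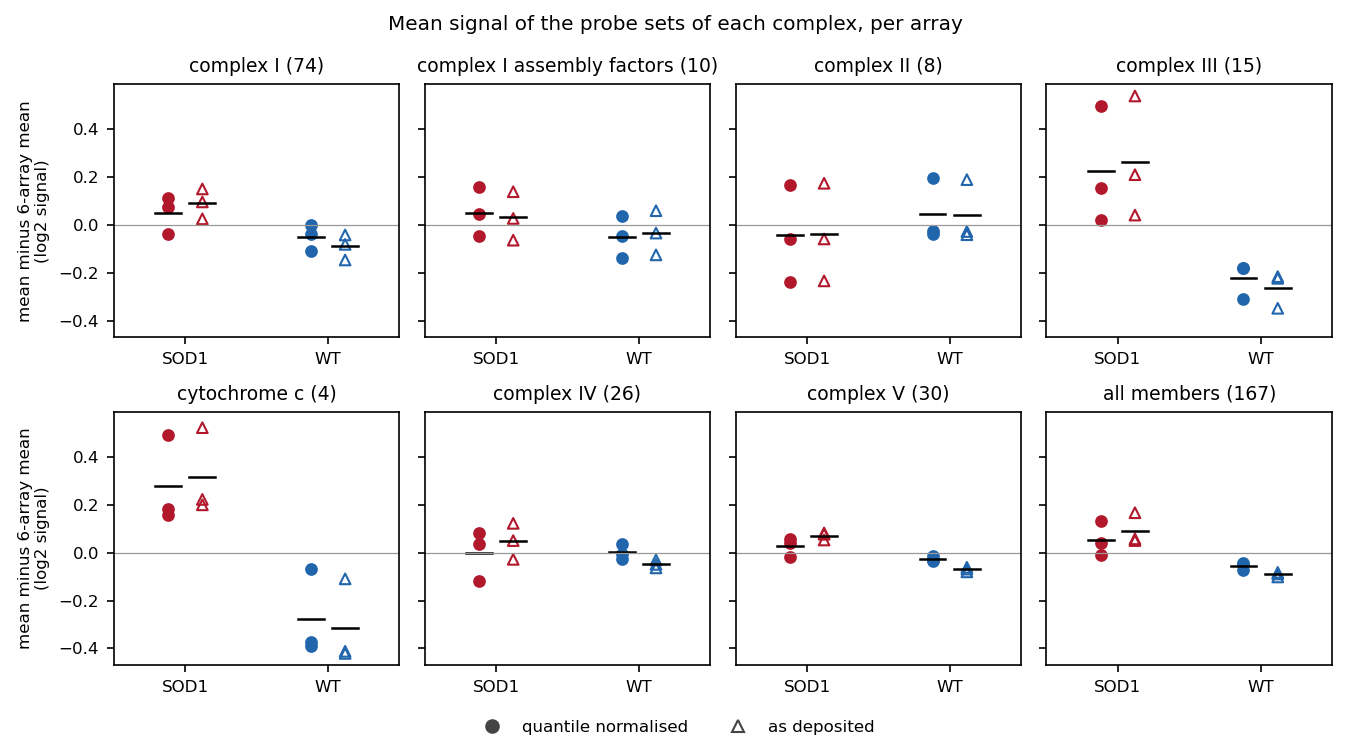
Mean log2 signal of the probe sets of each complex (number in brackets) on each array, minus the mean over the 6 arrays (vertical axis), in SOD1 (red) and WT (blue); filled circles are quantile-normalised values, open triangles values as deposited, and black lines group means. Complex III, cytochrome c and all members separate the groups under both scalings and complexes I, IV and V as deposited; the assembly factors and complex II overlap under both.

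The RNA of SOD1 samples differed from that of WT samples in markers of other cell types, which were measured on the same arrays. In such bulk samples fewer cells of a type and less RNA per cell cannot be told apart. Of 27 microglial and myeloid probe sets kept, 9 rose and 0 fell, with array means of 11.26 to 12.22 in SOD1 samples, against 8.16 to 9.68 in WT samples, and a median difference of 2.36. Tyrobp, a microglial adaptor protein, rose by 4.48 (limma, adjusted p = 0.0268). Of 34 astrocyte probe sets, 2 rose and 0 fell (11.84 to 11.98 in SOD1 samples, against 10.88 to 11.42 in WT samples). Of 29 oligodendrocyte probe sets none was called (12.82 to 12.91 in SOD1 samples, against 11.93 to 12.57 in WT samples). The share called among all probe sets tested was 0.185%. At an unadjusted limma p under 0.05, 23 microglial, 17 astrocyte and 13 oligodendrocyte probe sets were higher and 0 lower, against 7.09% and 7.58% of all probe sets tested.

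Vessel markers ran the other way. Of 15 endothelial probe sets 1 fell (9.37 to 9.57 in SOD1 samples, against 10.02 to 10.74 in WT samples), and of 17 mural and smooth muscle probe sets 2 fell (7.77 to 8.94 in SOD1 samples, against 9.54 to 10.47 in WT samples). The motor neuron list had none called and a median of -0.20, and the list of other neurons none called and a median of 0.09. At an unadjusted limma p under 0.05, 5 endothelial and 7 mural and smooth muscle probe sets were lower and 0 higher. Of 21 motor neuron probe sets 1 was higher and 6 lower, and of 13 for other neurons 1 was higher and 1 lower. Not above background on any array were 1 microglial, 2 astrocyte, 3 oligodendrocyte, 3 mural and smooth muscle and 7 other-neuron probe sets. The filter kept 13 of the 30 probe sets for other neurons and 17 of the 28 for mural and smooth muscle cells. The part of these cells in the subunit values was not tested.

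Other genes of the pathway, from lists that hold no subunit under the rule, gave no call either. Their counts at an unadjusted p under 0.05 stand against 7.09% higher and 7.58% lower among all probe sets tested. The 1 probe set of a mitochondrial DNA-encoded subunit, ND5 of complex I, had 16.48, 17.00 and 16.49 in SOD1 samples, against 16.86, 17.00 and 16.74 in WT samples (-0.21 ± 0.14, limma, adjusted p = 0.505), and -0.01 as deposited. Assembly factors outside the rule had 9 probe sets higher and 4 lower of 63 at an unadjusted p under 0.05, with a median of 0.03. The lowest p there belonged to Tmem186, a complex I assembly factor (-2.07 ± 0.46, limma, adjusted p = 0.107), and Pet100, which acts in the assembly of complex IV (0.64 ± 0.19, limma, adjusted p = 0.159).

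Regulators of mitochondrial biogenesis had 3 higher and 5 lower of 55, with a median of 0.06. Ppargc1b, a coactivator of mitochondrial genes, differed by -1.27 ± 0.30 (limma, adjusted p = 0.117), and Polrmt, the mitochondrial RNA polymerase, by -1.32 ± 0.38 (limma, adjusted p = 0.159). Carriers, pores and coupling proteins had 6 higher and 3 lower of 59, with a median of 0.09. Coq3, an enzyme of ubiquinone synthesis, differed by 0.74 ± 0.22 (limma, adjusted p = 0.166), and Slc25a3, the phosphate carrier that supplies ATP synthase, by -0.30 ± 0.09 (limma, adjusted p = 0.181) and by -0.11 as deposited.

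Promoter sequence was not used by the rule and was set beside that of all genes. RefSeq promoter windows were available for 75 of the 92 genes, in 80 windows of 300 bases, and both strands were searched. The GABP core CCGGAAG was in 23.75% of the subunit windows and 8.86% of all 32851 windows. The palindromic motif of NRF1 was in 7.5% and 0.971%, and GCATGCGC, which every such palindrome contains, in 15% and 2.71%. The YY1 motif, the capitals of the Ndufs7 window, was in 6.25% and 0.852%, and the estrogen-related receptor motif TCAAGGTCA in 2.5% and 0.423%. The median GC content was 59% in subunit windows and 52.7% in all windows, and its part in these shares was not tested. In the windows printed above, the capitals begin 60 bases before the start in Cycs, 10 before it in Uqcrh and 25 after it in Ndufs7. Other complex III windows differed: that of Uqcr10 held none of these motifs, and that of Uqcrc1 held the NRF1 palindrome. Any link between a motif and the direction of a difference was not tested. A match of letters does not show that the factor binds there.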

How the data were processed

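Linear signal intensities for 45101 probe sets on 6 arrays were used as deposited; per the labels' protocols the RNA had gone through 2 rounds of T7 amplification, which favours the 3′ end of transcripts. Every array had a 2% trimmed mean of 2500.02, so the authors' deposited intensities had been scaled to a common mean. The algorithm that made them is not given in the sources used here, and no detection calls were used. The 64 control probe sets entered the normalisation but no test. The platform annotation gave 1 symbol for 34945 of the remaining 45037, several for 932 and no entry for 9160; 10 probe sets with several symbols, 1 of them under the rule, are not members. All 92 genes matched RefSeq (GRCm38.p6) by Entrez identifier.

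Arrays were quantile normalised, 16 was added, log2 was taken, and the filter kept what lay above the 40th percentile of mean signal. The SOD1 and WT arrays were compared by limma 3.58.1 under R 4.3.3 (lmFit, eBayes with a variance trend; both directions tested; Benjamini-Hochberg adjustment over 27022 probe sets; threshold 0.05). The fit was tested on simulated data. Background was the 95th percentile of 27 bacterial controls per array. Of the probe sets, 48 of the 184 have identifiers marked as shared between transcripts.

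Subunits named are those with an unadjusted p under 0.05, the 2 lowest p and the brightest of each role, all tissue forms, and genes whose probe sets differ by over 1; of each pathway list, the 2 lowest p. Cox6c, Ndufa1, Ndufb11 and Cox7b2 were named beyond that rule, after their values were seen. The members and lists were chosen with earlier results of these data known, and the background level, the signal bands and the motifs after seeing the data. Alternatives were deposited or median-centred values, a pseudocount of 1 or 64, a filter at the 60th percentile or none, a robust or absent variance trend, weights per array, a block for replicate number, Xist as a covariate, leaving out identifiers ending in _s_at or _x_at, and each array left out. The number of arrays limits the precision. Figures were drawn with matplotlib 3.10.9.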

Additional observations from a re-analysis of the deposited data

How the results depend on the processing

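No subunit probe set passed the test with any setting but 2. The numbers of SOD1 and WT samples were shared, and the labels do not say whether same-numbered samples were paired. The deviations of same-numbered samples had correlations of 0.03, -0.04 and -0.01, which cannot show that they shared no batch. With the replicate block 1 subunit probe set was called (Uqcr10 1434341_x_at, 2.35, limma, adjusted p = 0.0252) and 76 probe sets in all. With Xist as a covariate 2 were called, both of Uqcr10, with differences of 3.73 (limma, adjusted p = 0.0377) and 3.50 (limma, adjusted p = 0.04998). Xist was high only in SOD1 samples 1 and 2, so these 2 differences rest mainly on SOD1 sample 3. That sample was the highest array on both probe sets, at 12.13 and 12.83. The number called in all, 50, was 87 with a pseudocount of 64, 106 with the filter at the 60th percentile, 0 with no variance trend and 100 with array weights. Leaving out 1 array gave 0 to 79: 0 without WT sample 2, 9 and 79 without WT samples 1 and 3, and 6 and 29 without SOD1 samples 2 and 3.

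Medians moved with the scaling: as deposited they were 0.20 for all subunits, 0.22 for complex I, 0.15 for complex IV and 0.21 for complex V. After median centring they were 0.31 for all subunits, 0.33 for complex I, 0.42 for complex III, 0.68 for cytochrome c, 0.25 for complex IV and 0.31 for complex V. With no filter complex III had 0.41. That setting added 1437134_at and 1452613_at of Uqcrq to complex III, each above background on 3 arrays, with differences of 0.67 and 1.08. As deposited with no filter the values were 0.20 for all subunits, 0.20 for complex I, 0.51 for complex III, 0.10 for complex IV and 0.21 for complex V. With 1 array left out the medians ranged from 0.051 to 0.10 for all subunits, 0.057 (without WT sample 3) to 0.11 for complex I, -0.18 (without WT sample 1) to -0.042 (without SOD1 sample 3) for complex II, 0.17 to 0.27 for complex III, 0.37 to 0.50 for cytochrome c and 0.035 to 0.11 for complex V. They changed sign for the assembly factors (-0.065 to 0.068) and for complex IV (-0.035 to 0.024). The cause was not tested. Probe sets with a mean of 12 or below carry larger errors.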
